A study of Rattus norvegicus with 18 samples.

Results

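The effect of the fungicide chlorothalonil on NRK-52E cells was not the same after 6 and 24 h of exposure. In 5821 of the 9041 genes tested (64.4%) the larger movement between these times was in the DMSO cultures. From 6 to 24 h the treatment effect moved upward for ribosome assembly factors (43 of 50 genes, where 38.9% of all genes moved this way). It also did so for heat shock proteins (21 of 33), proteasome subunits (32 of 37) and DNA replication genes (31 of 44). It moved downward for cholesterol synthesis (23 of 30, where 22.3% of all genes moved this way) and fatty acid synthesis (17 of 26). The effect moved downward too for extracellular matrix (27 of 37) and endoplasmic reticulum chaperones (19 of 30). By list medians in log2, the matrix effect went from 0.183 at 6 h to −0.495 at 24 h. That of the chaperones went from 0.0755 to −0.335, and that of cholesterol synthesis from −0.34 to −1.55. The levels themselves could go the other way. In each arm 40 of the 44 replication genes fell, and of the 30 cholesterol genes 25 rose in DMSO and 20 with chlorothalonil. The treated cultures alone rose for the heat shock gene Hspa1a, by 67.1-fold, and the cornified envelope gene Sprr1a, by at least 49.9-fold, both at background in DMSO. With arrays scaled to spiked control RNA, 919 genes in place of 5530 passed the test, 782 of them downward. That scaling without DMSO replicate 1 at 24 h gave 2262 genes, 1236 upward and 1026 downward.

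The comparison used the 12 arrays of 6 and 24 h, chosen by their titles, of 18 in the series. NRK-52E is an established epithelial line from rat kidney (Osborne-Mendel), described in the labels as proximal tubule cells. The cultures had reached confluence and received chlorothalonil at 1.1 µM, a dose named in the labels as the IC10 at 72 h, dissolved in 0.1% DMSO, or 0.1% DMSO alone. RNA was taken after 6 or 24 h, giving 4 groups of 3 arrays that the labels call biological replicates, from 3 studies per time. All groups had the vehicle and the confluent state in common, and no culture without DMSO or from before the exposure was analysed here. The question posed is how far the treatment effect moved between these times. For each gene the treatment effect is the mean log2 level with chlorothalonil minus that with DMSO, and the change of effect is the effect at 24 h minus that at 6 h. The same number equals the treated arm (chlorothalonil, 24 h minus 6 h) minus the DMSO arm (DMSO, 24 h minus 6 h), so a change can come from either arm. A gene is said to gain effect where the change passed the test above 0 and to lose effect where it passed below 0, whatever the sign of the effect itself. Values after ± are standard errors from the model over 3 arrays a group.

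Chlorothalonil is an organochlorine fungicide that reacts with thiol groups, such as those of glutathione and of protein cysteines. Cells meet reactive chemicals of this kind with antioxidant genes under the transcription factor NRF2, with heat shock proteins under HSF1 and with amino acid supply genes under ATF4. Cultured cells that reach confluence slow their growth, and genes for ribosome assembly and DNA replication are known to fall with growth. Sterol genes follow the SREBP factors, whose activation depends on membrane cholesterol. The tubule epithelium in the kidney reabsorbs solutes and is a common target of toxic chemicals.

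Within a group the arrays were correlated at 0.991 to 0.997 over the 9041 genes tested. Of 8 proximal tubule markers on the array, Ggt1, a brush border transpeptidase, lay above log2 4 in all 12 arrays, and the other 7, among them the uptake receptors Lrp2 and Cubn, lay at or below it in all. Log2 4 was taken as background here, and a group is called at background for a gene where all 3 of its arrays were at or below it. Of 7 epithelial markers, Krt8 and Tjp1 were above it in all 12 arrays and 5 in none. Of the fibroblast markers, 2 of 6 were above it throughout, the collagens Col1a1 and Col3a1, and none of 4 endothelial, 4 leukocyte and 5 distal nephron markers were above it throughout. Wt1 was the 1 podocyte marker of 3 above background in all arrays. Summed over all probe sets, between 49.7% and 50.9% lay above log2 4. RNA came from whole cultures, so fewer cells of a kind and less RNA per cell cannot be told apart.

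Poly-A control transcripts, which are spiked into RNA before labelling, were not level across the groups. Their mean log2 signal was 10.77 with chlorothalonil and 10.17 with DMSO at 6 h, and 11.05 and 9.995 at 24 h, so that their own change of effect was 0.46. DMSO replicate 1 at 24 h had the lowest value, 9.165, and replicates 2 and 3 of its group had 10.31 and 10.51. Hybridization controls, added after labelling, moved the other way by −0.297. For these, DMSO replicate 2 at 6 h had the lowest value, 10.75, beside 12.05 and 12 in replicates 1 and 3. So 1 array weighs heavily in the −0.297. On the deposited scale the change of effect had a median of 0.165 over all genes, and arrays centred on the median of the genes tested gave −0.00431. With each array set to its poly-A controls instead, the median was −0.298, and 0.126 there without DMSO replicate 1 at 24 h. The part of RNA amount in this was not tested.

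Of 9041 genes, 5530 changed their treatment effect between 6 and 24 h (61.2%), with limma and a Benjamini-Hochberg adjusted p under 0.05. The effect moved upward in 3513 of them (38.9% of all genes) and downward in 2017 (22.3%). Counts for the gene lists below are to be read beside these shares. Centred arrays gave 2761 upward and 2725 downward, a split of 50.3% upward against 63.5% on the deposited scale. Under poly-A scaling 919 genes passed, 137 upward and 782 downward, and leaving out DMSO replicate 1 at 24 h under that scaling gave 2262, 1236 upward and 1026 downward. A change of 2-fold or more was reached by 1090 of the upward and 816 of the downward genes. All 9 differences between treated arrays of 24 and 6 h lay on one side of all 9 such differences between DMSO arrays in 4979 of the 5530.

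The DMSO arm moved farther than the treated arm in 3843 of the 5530 genes (69.5%, against 64.4% of all genes) and the treated arm farther in 1687 (30.5%). Among those with a change of 2-fold or more the split was 1364 and 542. Over all 9041 genes the median absolute change from 6 to 24 h was 0.524 in DMSO and 0.336 with chlorothalonil, and 6528 genes passed the test in the DMSO arm (72.2%) against 5247 in the treated arm (58.0%). By which arms passed, 1976 of the 5530 genes moved in the DMSO arm alone (35.7%, against 28.2% of all genes) and 930 in the treated arm alone (16.8%, against 14%). Both arms moved in opposite directions in 1006 (18.2%, against 11.1%) and the same way but unequally in 1559 (28.2%, against 32.9%). In 59 neither arm passed (1.07%, against 13.7%). Every gene whose arms were called in opposite directions was also called in the change, so that share is no separate result. A first principal component with 56.6% of the variance placed the DMSO arrays of 24 h at 60.6 to 66.7. The treated arrays of 24 h lay at −9.02 to −1.67, the DMSO arrays of 6 h at −17.2 to −13.6 and the treated arrays of 6 h at −44.9 to −43.4. On the next component, with 22.3% of the variance, the treated arrays of 24 h at −34.1 to −31.2 and the DMSO arrays of 6 h at 35.1 to 39.1 were the groups farthest apart.

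**Figure D1:**
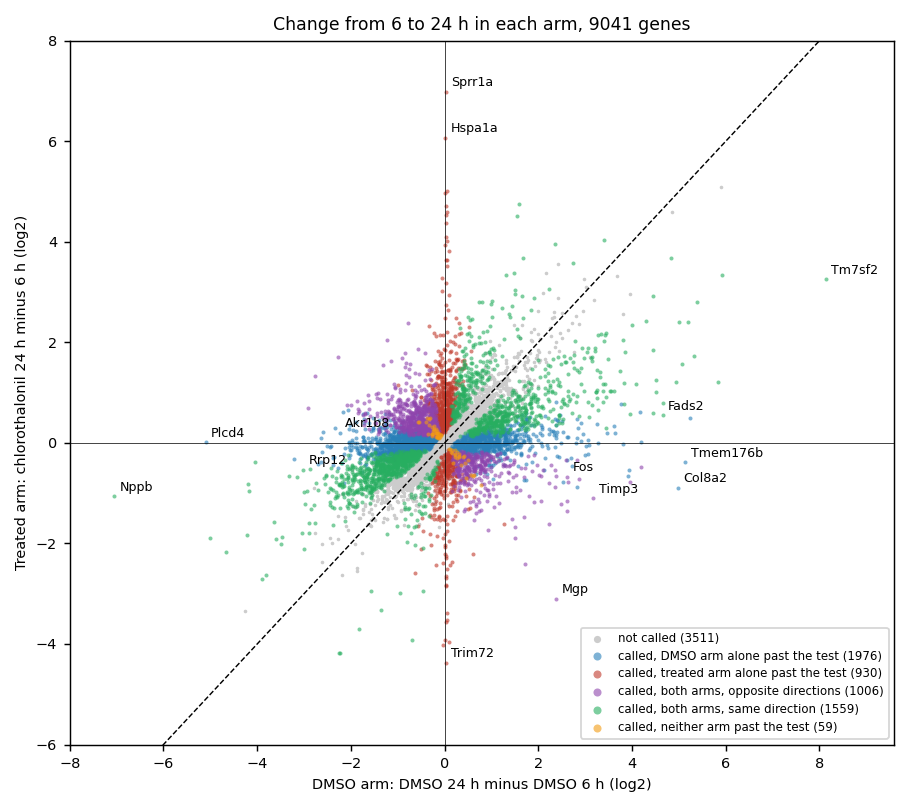
Each point is a gene, with its change from 6 to 24 h in the DMSO arm across and in the treated arm upward, both in log2. Genes above the dashed line of equal change gained treatment effect and those below it lost effect. Hspa1a and Sprr1a lie on the vertical axis (treated arm alone), Plcd4 and Col8a2 near the horizontal one (DMSO arm alone), and Mgp, Timp3 and Fos where DMSO rose and treated cells fell.

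Over all genes the treatment effect passed in 57.8% at 6 h (27.1% higher and 30.8% lower in treated cells) and in 69.2% at 24 h (39.1% and 30.1%). By these effects, 1921 of the 5530 genes had a called effect at 24 h alone (34.7%, against 27.7% of all genes) and 1093 at 6 h alone (19.8%, against 16.3%). A further 891 had an effect in the same direction at both times that was larger at 24 h, and 423 had one that was smaller. In 1113 genes (20.1%, against 12.3% of all genes) the effect was called in opposite directions at the 2 times. In 89 it was called at neither time alone. Each effect shares its arrays with the change, so these classes describe the change and do not add evidence for it.

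**Figure D2:**
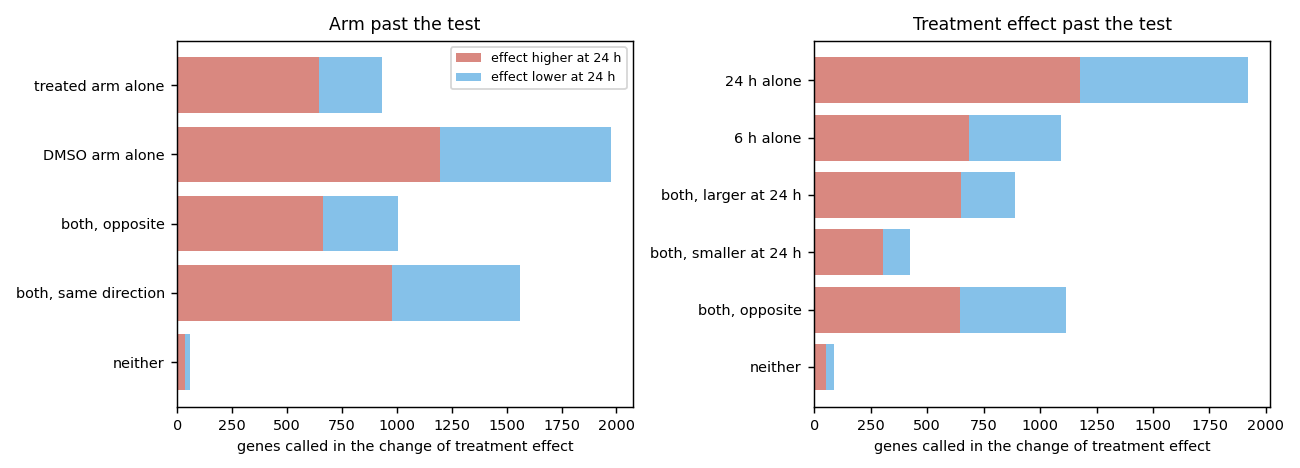
Bars count the 5530 genes whose treatment effect changed, split by the arm that passed the test (left) and by the time at which the effect passed (right). Red marks effects that moved upward and blue those that moved downward, and the DMSO-alone bar (1976) is the longest on the left.

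A set of genes was at background in DMSO at both times and rose in the treated arm alone. Hspa1a encodes the inducible HSP70 chaperone, which holds and refolds damaged proteins. Its log2 level was 3.96, 4.99 and 3.81 in the 3 treated arrays at 6 h and 10.77, 10.09 and 10.11 at 24 h, and it lay between 2.03 and 2.13 in all 6 DMSO arrays. Treated arrays of 24 h stood far above every other array, and at 6 h only replicate 2 was above background. The treated arm rose 67.1-fold and the change of effect was 6.05 ± 0.38 (adjusted p = 8.71e-07), and the probes cannot be taken to tell it from its near-identical neighbour Hspa1b.

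Sprr1a, a cross-linked protein of the cornified envelope that many injured epithelia also make, went from 2.58, 3.40 and 1.98 with chlorothalonil at 6 h to 9.67, 9.86 and 9.39 at 24 h. Its 6 DMSO arrays held 1.92 to 2.0, so the groups did not overlap at 24 h and the treated arm rose at least 49.9-fold. Ppfibp2, a liprin of cell adhesion sites, showed the same form with 2.77, 2.69 and 2.75 and then 7.33, 7.17 and 7.48 in treated cells and 2.59 to 2.68 in DMSO. The macrophage elastase gene Mmp12 rose in the treated arm from 2.13, 2.46 and 2.13 to 6.89, 7.67 and 7.09, and the stromelysin Mmp10 from 2.32, 2.38 and 2.45 to 6.10, 6.65 and 6.43, both with DMSO at background throughout. In all 4 genes the change in the DMSO arm did not pass.

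Stmn4, a microtubule-destabilising stathmin, Sdcbp2, a syntenin, Cym, a digestive protease, and Tchh, a structural protein of hair follicles, likewise rose in the treated arm alone. Their changes of effect were 4.96 ± 0.28, 4.68 ± 0.28, 3.47 ± 0.31 and 3.34 ± 0.18. Since DMSO was at background at both times in these genes, the change is that of the treated arm, at least 11-fold, at least 12.6-fold, 11.5-fold and 9.78-fold. Sod2, the mitochondrial superoxide dismutase and a target of NF-kB, was well expressed in all groups and still moved in the treated arm alone. It was 11.60, 11.57 and 11.65 and then 12.87, 12.93 and 12.85 with chlorothalonil, against 11.32, 11.38 and 11.32 and 11.36, 11.34 and 11.37 with DMSO. The change of 1.26 ± 0.07 passed on the deposited scale (adjusted p = 5.57e-07) and not under poly-A scaling.

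The promoter of Sprr1a is shown because it holds matches on either strand to TGACTCA, the letters bound by AP-1 factors such as FOS and JUN, and 4.53% of all 27457 promoters of this length in the RefSeq table (GRCr8) have such a match. The 300 bases run from 250 before to 50 after the start site at chr2:180752576-180752875 on the minus strand, with both matches in capitals.
Sprr1a: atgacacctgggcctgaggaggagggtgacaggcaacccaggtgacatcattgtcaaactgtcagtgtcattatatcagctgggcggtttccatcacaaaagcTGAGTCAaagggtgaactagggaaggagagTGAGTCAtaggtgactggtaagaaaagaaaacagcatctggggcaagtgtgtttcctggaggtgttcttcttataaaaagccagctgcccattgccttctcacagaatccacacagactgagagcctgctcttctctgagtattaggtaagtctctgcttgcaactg
A match describes letters and not a bound site. Mmp10 and Mmp12 also held 1 AP-1 match each in their promoters, and those of Tchh and Sod2 did not. No AP-1 match was recorded for Hspa1a, Ppfibp2, Stmn4, Sdcbp2 or Cym, whose promoters may not have been found by symbol. Among genes called upward 3.18% of promoters had a match, against 3.24% of those called downward and 3.29% of all genes tested.

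Treated cells fell alone in 285 genes, against 645 in which they rose alone. Trim72, a ubiquitin ligase known for membrane repair in muscle, was 7.57, 7.81 and 7.41 with chlorothalonil at 6 h and 4.15, 3.25 and 2.27 at 24 h, while its 6 DMSO arrays lay between 2.22 and 2.32. Iqub, a ciliary protein, went from 6.78, 7.26 and 7.08 to 2.98, 3.0 and 3.25 over a DMSO background of 2.88 to 3.08. Both were therefore present in treated cells of 6 h, and at 24 h Iqub was at background and Trim72 above it in 1 of 3 arrays. The chemokine gene Ccl7 fell in treated cells from 7.86, 8.03 and 7.50 to 5.46, 5.12 and 5.65, with DMSO at background. Ccl2, another chemokine of monocytes, had 8.48, 7.97 and 7.55 and then 7.46, 7.76 and 7.68 in treated cells, and its change of effect of −0.27 ± 0.28 did not pass (adjusted p = 0.423).

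Pcf11, a factor of transcript cleavage, and Pgm3, an enzyme of amino sugar synthesis, had changes of −2.88 ± 0.78 and −2.82 ± 0.47. Their DMSO arrays of 6 h were uneven, at 8.85, 6.37 and 8.79 for Pcf11 and 7.23, 5.85 and 7.24 for Pgm3, with replicate 2 low in both. Krt7, a simple epithelial keratin, was 6.48, 6.61 and 6.32 with chlorothalonil at 6 h and 3.81, 3.32 and 3.42 at 24 h. In DMSO it was 4.10, 3.65 and 3.45 and then 3.29, 3.10 and 3.42, at or near background at both times. The treated arm fell to background, and a fall in DMSO cannot be measured at such levels.

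Where the DMSO arm fell and the treated arm held or fell less, the effect grew without a rise in treated cells. Nppb encodes brain natriuretic peptide, a hormone released under mechanical load. Its level was 10.05, 10.36 and 10.12 in DMSO at 6 h and 3.22, 3.30 and 2.87 at 24 h, a fall of at least 72.3-fold. Treated cells had 11.34, 11.58 and 11.40 and then 10.45, 10.30 and 10.39, a fall of 2.08-fold, and lay above DMSO at both times without overlap. The change of effect was at least 5.12 in log2 when values were raised to background (5.99 ± 0.17 as deposited, adjusted p = 7.75e-09).

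Plcd4, a phospholipase C, fell in DMSO from 7.75, 7.57 and 8.18 to 2.63, 2.70 and 2.89, and its treated arrays stayed level, with 9.30, 9.23 and 9.21 and then 9.08, 9.50 and 9.19. The treated arm thus had a change of 0.0088 and the DMSO arm fell at least 14.3-fold. Ifi27l2b, a small mitochondrial protein of an interferon-responsive family, moved in both arms. It rose in treated cells from 11.08, 10.89 and 10.78 to 12.38, 12.22 and 12.14 and fell in DMSO from 9.99, 10.24 and 10.19 to 7.39, 7.62 and 7.13, and the larger step was that of DMSO. Abhd2, a lipase, and Siae, a sialic acid esterase, moved likewise in opposite directions, with changes of effect of 3.61 ± 0.37 and 3.98 ± 0.14, and so did Fgd6, a guanine exchange factor, with 3.27 ± 0.48.

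Aen, a nuclease in apoptosis and a p53 target, shows the DMSO arm alone at a high level. DMSO had 9.22, 9.07 and 9.19 at 6 h and 6.71, 6.93 and 5.95 at 24 h, and chlorothalonil 9.02, 8.87 and 8.94 and 9.04, 9.07 and 9.01. The effect at 6 h, −0.22, did not pass and that at 24 h was 2.51. Ighmbp2, a helicase, and Actr5, a chromatin remodelling subunit, also moved in DMSO alone, with changes of 2.72 ± 0.45 and 2.80 ± 0.42, and in both the effect was below 0 at 6 h and above 0 at 24 h.

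In other genes the effect moved downward as the DMSO arm rose. Col8a2, a short-chain collagen, lay between 3.59 and 5.70 in 9 arrays and reached 8.97, 8.66 and 8.65 in DMSO at 24 h. Its treated arrays were 4.92, 3.59 and 5.70 at 6 h and 3.82, 3.59 and 4.13 at 24 h, a change that did not pass (adjusted p = 0.0801). The DMSO arm rose at least 27.1-fold. Tmem176b, a membrane protein of intracellular vesicles, had 4.25, 2.94 and 2.80 in DMSO at 6 h and 8.58, 8.32 and 8.5 at 24 h, and treated cells 4.86, 5.43 and 4.26 and 4.23, 4.86 and 4.29. The Ropporin-like gene Ropn1l rose in DMSO 37.7-fold, from 5.36, 5.67 and 5.28 to 10.52, 10.57 and 10.94, while its treated arm had 0.49 (adjusted p = 0.172). Sema3a, a guidance cue, had a change of effect of −3.69 ± 0.67 with an uneven DMSO group at 6 h, 6.98, 5.17 and 7.31. Olfml2a, a matrix protein, and Hacd4, an enzyme of long-chain fatty acids, rose in DMSO to 8.29, 7.81 and 7.83 and 8.97, 8.75 and 8.76.

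Some genes crossed over, with treated cells higher at 6 h and lower at 24 h. Mgp, the matrix Gla protein that restrains calcification, was 6.48, 6.17 and 6.29 with chlorothalonil against 3.24, 3.63 and 4.17 with DMSO at 6 h. At 24 h it was 3.27, 3.24 and 3.13 against 6.25, 6.85 and 5.07, so both arms had moved and the order of the groups was turned without overlap at either time. Timp3, an inhibitor of matrix metalloproteinases, went from 8.78, 8.97 and 8.86 to 7.89, 7.64 and 7.79 in treated cells and from 6.95, 6.43 and 7.24 to 10.29, 9.83 and 10.03 in DMSO. Its DMSO arm rose 9.04-fold and its treated arm fell 2.14-fold, and the change was −4.27 ± 0.26 (adjusted p = 6.43e-07).

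Bambi, a decoy receptor that damps TGF-beta signals, had 9.09, 9.18 and 9.18 and then 8.03, 7.53 and 8.26 in treated cells, and 7.59, 7.01 and 7.07 and then 9.75, 9.65 and 9.72 in DMSO. Kitlg, the ligand of the KIT receptor, had 6.34, 6.61 and 6.69 and then 3.32, 5.15 and 3.98 with chlorothalonil and 5.96, 5.10 and 4.50 and then 6.65, 7.12 and 6.96 with DMSO. Both genes crossed over without overlap, Bambi with the larger step in DMSO and Kitlg with the larger step in treated cells.

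**Figure D3:**
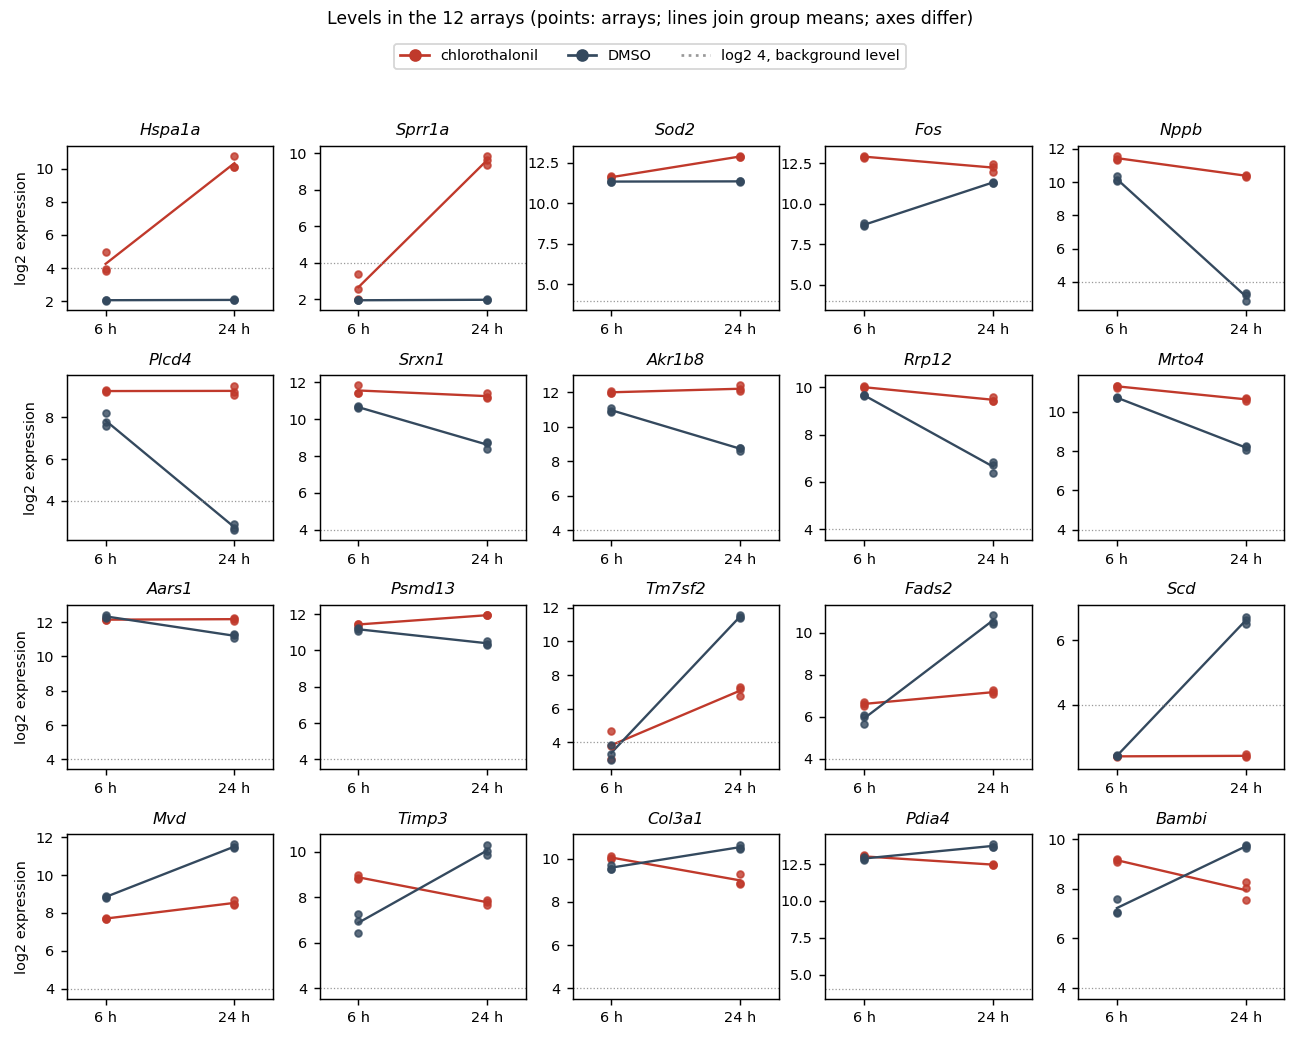
Log2 level of 20 genes in the 12 arrays, 6 h on the left and 24 h on the right of each panel; points are arrays, lines join group means, red is chlorothalonil, dark blue is DMSO and the dotted line is background. Only the treated line climbs for Hspa1a, Sprr1a and Sod2, only the DMSO line moves for Plcd4, Akr1b8 and Scd, and the lines cross for Timp3, Col3a1 and Bambi.

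Heat shock proteins and other HSF1 targets gained effect in 21 of 33 genes tested and lost it in 3, with a median change of 0.516 that stayed above 0 under poly-A scaling, at 0.0527. The DMSO arm alone moved in 14 of these 24 genes. Its median over the list was −0.708, and that of the treated arm −0.114. The treated arm alone moved in 2 and both arms in 8. Chordc1, an HSP90 co-chaperone, had 12.14, 11.97 and 11.91 and then 10.70, 10.88 and 10.85 in DMSO and stayed at 12.64, 12.48 and 12.51 and 12.51, 12.48 and 12.39 in treated cells. Hspe1, the mitochondrial co-chaperonin, changed by −0.93 in DMSO and by −0.078 in treated cells. Hspb1, a small heat shock protein, was different, since treated cells rose from 13.10, 13.03 and 12.98 to 14.18, 14.27 and 14.08 and DMSO changed by −0.22. Under poly-A scaling the changes of Chordc1, Hspe1 and Hspb1 no longer passed.

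The heat shock element, searched on both strands as GAA, TTC and GAA with 2 free bases between each, had a match in 7 of the 30 promoters found for this list (23.3%) against 0.736% of all promoters. Chordc1 and Hspe1 are shown as members with overlapping matches, in capitals, at chr8:23650571-23650870 and chr9:64084077-64084376, both on the plus strand of GRCr8 (RefSeq).
Chordc1: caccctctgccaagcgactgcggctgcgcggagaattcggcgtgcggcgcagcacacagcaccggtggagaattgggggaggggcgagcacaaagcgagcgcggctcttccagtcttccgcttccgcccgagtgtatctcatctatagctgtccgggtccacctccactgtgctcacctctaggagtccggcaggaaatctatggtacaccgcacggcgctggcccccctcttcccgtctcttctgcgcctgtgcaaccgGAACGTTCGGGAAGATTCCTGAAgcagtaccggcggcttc
Hspe1: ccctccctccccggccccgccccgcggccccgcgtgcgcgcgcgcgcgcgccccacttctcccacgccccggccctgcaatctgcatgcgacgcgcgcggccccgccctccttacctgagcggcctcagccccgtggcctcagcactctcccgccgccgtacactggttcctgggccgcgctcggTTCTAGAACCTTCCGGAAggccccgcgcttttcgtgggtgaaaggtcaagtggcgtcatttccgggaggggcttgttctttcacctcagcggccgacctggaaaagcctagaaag
The list was built from known HSF1 targets, so the share describes the list and not its movement.

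NRF2 targets went both ways, 15 upward and 11 downward of 36, beside 38.9% and 22.3% of all genes. The median of 0.0187 turned below 0 under quantile normalization (−0.00882), centring (−0.151) and poly-A scaling (−0.445). Akr1b8, an aldo-keto reductase, changed in DMSO alone. It held 10.91, 10.89 and 11.10 at 6 h and 8.80, 8.62 and 8.77 at 24 h in DMSO, and 12.07, 11.97 and 11.97 and 12.17, 12.41 and 12.05 with chlorothalonil, so an effect of 2.06-fold became 11.2-fold with no called rise in treated cells. Srxn1, which repairs oxidised peroxiredoxins, was similar, with 10.71, 10.60 and 10.63 and then 8.71, 8.76 and 8.38 in DMSO and 11.43, 11.41 and 11.82 and then 11.22, 11.39 and 11.12 in treated cells.

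Hmox1, the haem-degrading enzyme, fell in both arms, from 12.39, 12.72 and 12.67 to 11.33, 10.75 and 10.95 with chlorothalonil and from 8.52, 8.2 and 8.45 to 5.66, 5.56 and 5.29 with DMSO. The effect grew from 18.4-fold to 45.5-fold as DMSO lost more, and the change was 1.3 ± 0.22 (adjusted p = 0.000513). Txnrd1, thioredoxin reductase, also fell in both arms, with 1.03 ± 0.11. For Nqo1, a quinone reductase, the effect was −1.09 at 6 h and 0.0084 at 24 h. That gap closed from both sides, since treated cells rose by 0.33 and DMSO had a change of −0.77. Gclm, a subunit of the enzyme that limits glutathione synthesis, turned from −0.35 to 0.78 through the DMSO arm alone.

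Of the named genes in this list, Gstm2, Gsta4 and Ephx1 lost effect as DMSO rose. The glutathione transferase Gstm2 was 9.80, 9.67 and 9.69 in DMSO at 6 h and 12.21, 11.87 and 12.06 at 24 h, and treated cells had 10.04, 10.26 and 10.30 and 10.42, 10.30 and 10.36. Gsta4 moved in DMSO alone too, by 1.63, and the epoxide hydrolase Ephx1 rose in both arms, by 3.83 in DMSO and 1.19 in treated cells. Probes for glutathione transferases can bind close relatives. Poly-A scaling ended the calls of Srxn1, Hmox1, Txnrd1, Nqo1 and Gclm and kept those of Akr1b8, Gstm2, Gsta4 and Ephx1.

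Ribosome biogenesis moved nearly all one way, 43 of 50 genes upward and 0 downward. Its median change was 1.03, and 0.569 under poly-A scaling. In DMSO 49 of the 50 fell (40.0% of all genes fell in that arm) with a median of −1.44, and with chlorothalonil 39 fell (24.4% of all genes) with a median of −0.539. In 33 of the 43 both arms fell, DMSO more. Rrp12, which exports and matures ribosomal subunits, was 9.67, 9.65 and 9.67 and then 6.37, 6.73 and 6.84 in DMSO and 10.00, 10.05 and 9.96 and then 9.42, 9.42 and 9.58 in treated cells. Mrto4, a ribosome stalk assembly factor, had 10.69, 10.76 and 10.72 and then 8.21, 8.26 and 8.08 in DMSO and 11.24, 11.34 and 11.33 and then 10.67, 10.53 and 10.71 with chlorothalonil. Treated arrays lay above DMSO at both times in both genes. Emg1, a methyltransferase of ribosomal RNA, had a change of 1.53 ± 0.10, and Utp3, of the small subunit processome, 1.21 ± 0.09 in the DMSO arm alone. Of these 4, Rrp12 kept its call under poly-A scaling.

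Aminoacyl-tRNA synthetases, which load amino acids onto tRNAs, gained effect in 14 of 18 genes and lost it in 1, with a median of 0.719 (0.256 poly-A scaled). The DMSO arm alone moved in 6 and both arms moved the same way in 9. Aars1, for alanine, was 12.32, 12.26 and 12.43 and then 11.29, 11.23 and 11.09 in DMSO and 12.10, 12.18 and 12.14 and then 12.27, 12.19 and 12.06 with chlorothalonil. Yars1, for tyrosine, fell by 1.67 in DMSO and by 0.53 in treated cells. Mars1, for methionine, and Sars1, for serine, had changes of 0.94 ± 0.10 and 0.81 ± 0.09. None of these 4 calls was kept under poly-A scaling.

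A C/EBP-ATF element, the letters TGATGNAAN read on either strand, that ATF4 and its partners are known to bind, matched 7 of 17 synthetase promoters (41.2%) and 3.80% of all promoters. Aars1 and Yars1 are given with their matches in capitals, at chr19:55908232-55908531 and chr5:146819913-146820212 on the plus strand of GRCr8 (RefSeq).
Aars1: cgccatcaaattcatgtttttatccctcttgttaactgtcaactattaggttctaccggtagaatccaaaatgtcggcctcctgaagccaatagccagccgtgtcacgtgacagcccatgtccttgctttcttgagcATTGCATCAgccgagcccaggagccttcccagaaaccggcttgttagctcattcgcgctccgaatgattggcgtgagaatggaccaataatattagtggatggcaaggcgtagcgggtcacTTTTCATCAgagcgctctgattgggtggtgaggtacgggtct
Yars1: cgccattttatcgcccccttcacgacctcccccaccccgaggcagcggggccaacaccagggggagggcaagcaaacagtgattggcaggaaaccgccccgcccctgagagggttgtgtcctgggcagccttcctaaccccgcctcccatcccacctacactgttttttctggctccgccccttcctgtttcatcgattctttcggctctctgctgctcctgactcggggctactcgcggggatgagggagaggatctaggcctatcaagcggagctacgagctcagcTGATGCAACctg
In the list of ATF4 and amino acid response genes 6 of 27 promoters matched (22.2%).

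Splicing factors and hnRNPs gained effect in 33 of 47 genes and lost it in 5, and their median of 0.477 was 0.0137 under poly-A scaling. U2af2, which marks the 3′ splice site, was 10.45, 10.59 and 10.53 and then 8.61, 8.81 and 8.43 in DMSO and 10.83, 10.76 and 11.03 and then 10.50, 10.29 and 10.41 in treated cells. Prpf3 of the tri-snRNP and Sf3a2 and Sf3a3 of the U2 snRNP had changes of 1.31 ± 0.09, 1.09 ± 0.09 and 0.92 ± 0.10. Both arms fell in all 4 genes and the DMSO arm fell farther, and poly-A scaling ended the 4 calls.

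The proteasome, which degrades marked proteins, differed from these lists in the treated arm. Of 37 genes, 32 gained effect and 1 lost it, with a median of 0.67 and 0.206 under poly-A scaling. In 22 of these 33 the arms moved in opposite directions, against 18.2% of all changed genes. The treated arm rose in 28 genes (33.7% of all genes rose there) with a median of 0.28, and the DMSO arm fell in 28 (40.0%) with a median of −0.392. Psmd13, a lid subunit of the regulatory particle, was 11.36, 11.47 and 11.45 and then 11.93, 11.95 and 11.93 with chlorothalonil and 11.16, 11.24 and 11.07 and then 10.34, 10.52 and 10.31 with DMSO. Treated arrays were above DMSO at both times and the gap widened from both sides. Psmd9, an assembly chaperone, Psmd3 and the ATPase Psmc4 also rose in treated cells and fell in DMSO, with changes of 1.69 ± 0.14, 1.14 ± 0.09 and 1.07 ± 0.10. On the poly-A scale these 4 calls were lost.

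Cholesterol synthesis and uptake lost effect in 23 of 30 genes and gained it in 3. The median was −0.981, and −1.44 under poly-A scaling. Both arms moved the same way in 16, and the rise from 6 to 24 h was 1.18 in DMSO and 0.362 with chlorothalonil by the list's medians. Tm7sf2, a sterol reductase of the late pathway, rose in DMSO from 3.31, 2.96 and 3.80 to 11.46, 11.60 and 11.41, at least 180-fold. In treated cells it rose from 4.68, 3.77 and 3.0 to 6.78, 7.27 and 7.16, 9.55-fold, and at 24 h the groups were apart by −4.42. Mvd, which makes isopentenyl diphosphate, was 7.67, 7.70 and 7.73 and then 8.67, 8.49 and 8.43 with chlorothalonil and 8.83, 8.80 and 8.90 and then 11.46, 11.62 and 11.43 with DMSO, lower in treated cells at both times.

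Other named steps followed the DMSO arm as well. Pmvk, phosphomevalonate kinase, and Ebp, a sterol isomerase, rose by 2.73 and 2.37 in DMSO and by 0.59 and 0.36 in treated cells. Hsd17b7, a ketosteroid reductase of the late pathway, moved in opposite directions, from 8.29, 8.35 and 8.63 to 10.63, 10.83 and 10.88 in DMSO and from 8.29, 8.2 and 8.05 to 7.46, 7.67 and 7.80 with chlorothalonil. Another probe set of Hsd17b7 gave a rise of 2.306 in DMSO and −0.04 in treated cells. All 5 sterol genes named here were called under poly-A scaling too.

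CCAAT boxes, read as CCAAT on either strand, were present in 20 of 26 sterol gene promoters (76.9%) and in 37.7% of all promoters. The share was as high in mitosis genes (82.5%), endoplasmic reticulum chaperones (79.2%) and tubulins and stathmins (76.9%), so it is not particular to sterol genes. In ribosome biogenesis it was 17.4%. The sterol element TCACCCCAC was present in 0 of 26 against 0.495%. Hsd17b7 and Mvd are shown with their CCAAT letters in capitals, at chr13:84722705-84723004 and chr19:67414925-67415224 on the minus strand of GRCr8 (RefSeq).
Hsd17b7: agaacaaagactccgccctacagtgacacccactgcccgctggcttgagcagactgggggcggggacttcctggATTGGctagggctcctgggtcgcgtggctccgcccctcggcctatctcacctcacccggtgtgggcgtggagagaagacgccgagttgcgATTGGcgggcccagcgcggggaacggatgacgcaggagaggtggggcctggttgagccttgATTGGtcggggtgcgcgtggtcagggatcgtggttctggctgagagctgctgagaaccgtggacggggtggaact
Mvd: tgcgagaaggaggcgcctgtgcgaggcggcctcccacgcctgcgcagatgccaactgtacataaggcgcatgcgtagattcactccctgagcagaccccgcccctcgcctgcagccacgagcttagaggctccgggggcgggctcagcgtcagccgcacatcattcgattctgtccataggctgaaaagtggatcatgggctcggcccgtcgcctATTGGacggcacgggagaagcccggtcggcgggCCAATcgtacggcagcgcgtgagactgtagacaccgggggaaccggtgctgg
That a list has none of the sterol letters says only that they are not in these windows.

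Fatty acid synthesis lost effect in 17 of 26 genes and gained it in 3, with a median of −0.905 and −1.37 under poly-A scaling. The DMSO arm had a median of 0.866 and the treated arm 0.0599. Scd, the stearoyl-CoA desaturase, was at background in 9 arrays, between 2.37 and 2.46, and reached 6.51, 6.73 and 6.62 in DMSO at 24 h, at least 6.15-fold above background. Fads2, the delta-6 desaturase, was 6.01, 5.66 and 6.11 and then 10.82, 10.52 and 10.40 in DMSO and 6.53, 6.69 and 6.63 and then 7.18, 7.26 and 7.07 in treated cells. The treated arrays were the higher group at 6 h and the lower at 24 h.

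Acss2, which makes acetyl-CoA from acetate, rose 22.9-fold in DMSO and 2.40-fold with chlorothalonil. Fads1, the delta-5 desaturase, had a change of −2.57 ± 0.12. Fasn, the fatty acid synthase, was already lower in treated cells at 6 h, by −0.90, and at 24 h the difference was −2.53. Its DMSO arrays rose from 10.62, 10.71 and 10.79 to 12, 12.11 and 12.03 and its treated arrays fell from 9.93, 9.68 and 9.80 to 9.46, 9.57 and 9.52. These 5 genes kept their calls under poly-A scaling.

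Fatty acid oxidation and PPAR targets had 11 genes upward and 5 downward of 25, near the shares of all genes (38.9% and 22.3%). The median of 0.236 turned to −0.227 under poly-A scaling. Eci1, an isomerase of unsaturated fatty acids, went down by −2.36 ± 0.13, with an effect of 1.21 at 6 h and −1.15 at 24 h while both arms rose. Cpt1a, which admits fatty acids to mitochondria, Eci2 and the thioesterase Acot2 went up by 0.95 ± 0.09, 1.16 ± 0.10 and 1.2 ± 0.13, each with the treated arm rising and the DMSO arm falling. The last 3 did not pass under poly-A scaling.

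Extracellular matrix genes lost effect in 27 of 37 and gained it in 5, with a median of −0.654 and −1.12 under poly-A scaling. Here the treated arm took part. Its median was −0.303 and that of DMSO 0.427, and 10 of the 32 called genes moved in opposite directions, 9 in DMSO alone and 6 in treated cells alone. Col3a1, a fibrillar collagen, was 9.98, 10.05 and 10.13 and then 8.83, 8.86 and 9.29 with chlorothalonil and 9.69, 9.54 and 9.53 and then 10.49, 10.47 and 10.64 with DMSO. Treated arrays were above DMSO at 6 h and below it at 24 h. Fbln5, which organises elastic fibres, had −2.17 ± 0.13, with a rise of 1.53 in DMSO and a fall of 0.64 in treated cells. Lama5, a laminin chain of basement membranes, rose in both arms, more in DMSO. Mmp10, which rose in treated cells alone, is in this list too.

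TGF-beta signalling followed, with 16 of 34 genes downward and 5 upward and a median of −0.225 (−0.688 poly-A scaled). Beside Bambi, the ligand Tgfb2 crossed over, with an effect of 0.56 at 6 h and −0.61 at 24 h. Ltbp3, which binds latent TGF-beta in matrix, rose in both arms, by 1.59 in DMSO and 0.63 with chlorothalonil. Smad7, an inhibitory SMAD, had a change of −1.06 ± 0.12 in DMSO alone. Of its other probe sets, 1 gave −0.654 (adjusted p = 0.0189) and 1 gave 0.349, which did not pass (adjusted p = 0.0649). In the Notch and Wnt list, 7 of 22 genes went down and 3 up, and Hes1, a Notch target, went from an effect of 2.23 to 0.42 as DMSO rose from 7.78, 7.81 and 7.80 to 10.63, 10.48 and 10.33.

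Endoplasmic reticulum chaperones and unfolded protein response genes lost effect in 19 of 30 and gained it in 5, with a median of −0.436 and −0.899 under poly-A scaling. Pdia4, a disulfide isomerase, was 12.95, 13.01 and 13.09 and then 12.46, 12.48 and 12.45 with chlorothalonil and 12.97, 12.80 and 12.87 and then 13.87, 13.68 and 13.65 with DMSO. The groups overlapped at 6 h, where the effect did not pass, and lay apart at 24 h. Xbp1, a transcription factor of this response, and the chaperone Erp29 also fell in treated cells and rose in DMSO, with changes of −1.02 ± 0.09 and −1.06 ± 0.12. Pdia6 moved in DMSO alone, with −0.71 ± 0.09. Under poly-A scaling Xbp1 and Pdia6 did not pass. The difference between these chaperones and the cytosolic ones was not tested as such.

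**Figure D4:**
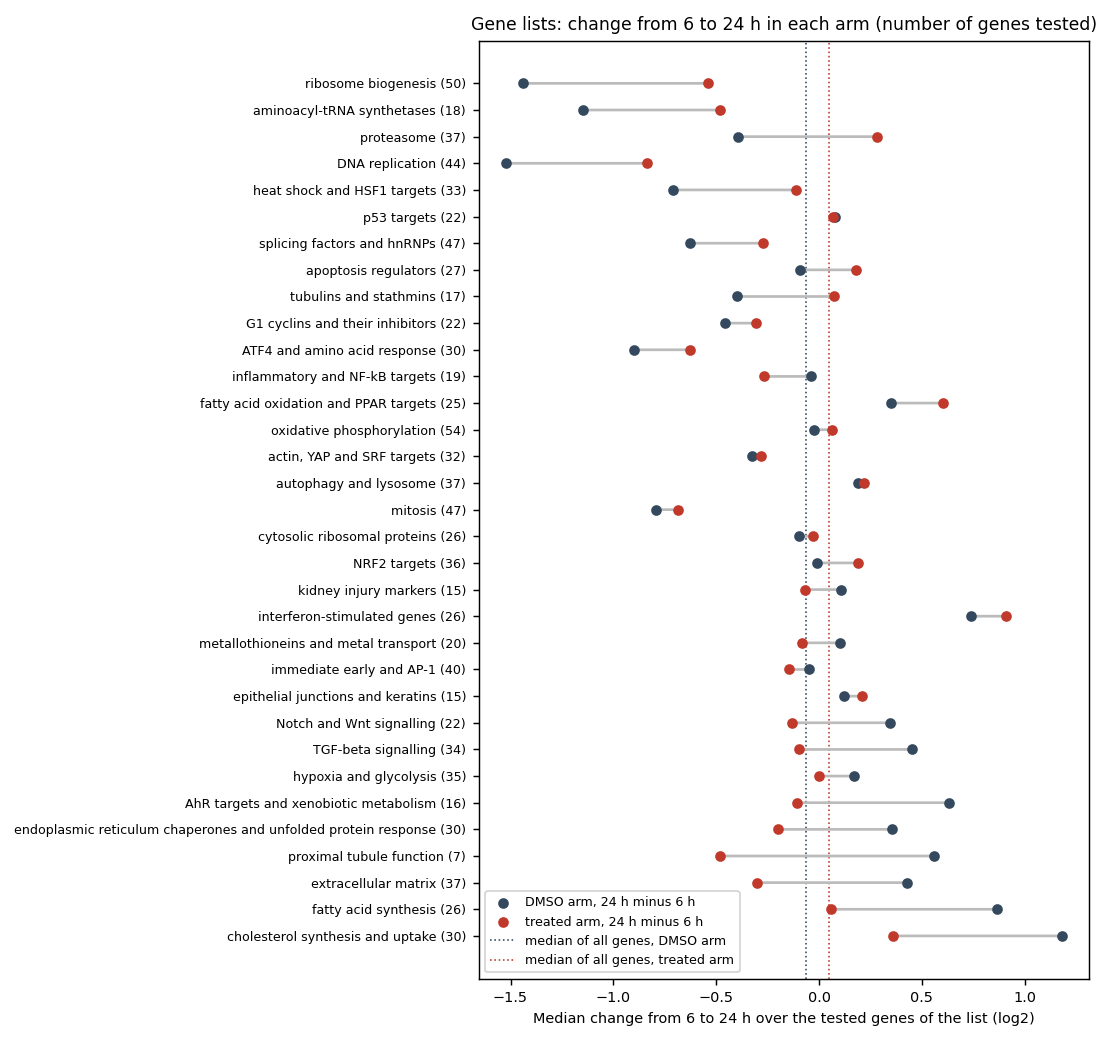
For each gene list, the median log2 change from 6 to 24 h in the DMSO arm (dark blue) and the treated arm (red), with the number of genes tested in brackets; dotted lines are the medians of all genes. Where the red point lies right of the blue one the effect moved upward, as in ribosome biogenesis (−0.539 against −1.44), and where it lies left the effect moved downward, as in cholesterol synthesis (0.362 against 1.18).

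Immediate early and AP-1 genes, the fast transcriptional answer to stress and growth signals, had 8 of 40 genes upward and 14 downward (38.9% and 22.3% of all genes). Their median was −0.121, from −0.205 to 0.0276 when single arrays were left out. Fos was 12.96, 12.91 and 12.84 with chlorothalonil and 8.63, 8.65 and 8.80 with DMSO at 6 h, and 12.45, 11.97 and 12.27 and 11.30, 11.34 and 11.29 at 24 h. The treated arrays stayed the higher group, and the effect shrank from 18.5-fold to 1.89-fold, chiefly because DMSO rose 6.14-fold. Egr1, a zinc finger factor, had an effect of 3.69 at 6 h and 2.02 at 24 h, with a fall of 0.81 in treated cells and a rise of 0.85 in DMSO. Klf10 turned from 1.31 to −0.81. Mafk and Maff, small MAF partners of NRF2, gained effect by 1.78 ± 0.14 and 1.34 ± 0.11 through falling DMSO levels, which poly-A scaling did not keep.

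For other members no change was called. For Jun, the AP-1 partner of FOS, the treated arrays were 11.91, 12.01 and 11.99 and then 11.91, 11.88 and 11.89 and DMSO 9.87, 9.98 and 9.68 and then 9.66, 9.89 and 9.65. Its change of 0.035 ± 0.13 did not pass (adjusted p = 0.822), and its other probe sets gave −0.919 (adjusted p = 0.00273) and 0.06 (adjusted p = 0.742). Atf3, a stress factor of the same family, had an effect of 6.23 at 6 h and 5.38 at 24 h, and the change of −0.86 ± 0.39 missed the threshold (adjusted p = 0.0760), which it passed with arrays centred (adjusted p = 0.0306) and without DMSO replicate 3 at 24 h (adjusted p = 0.0238). Fosl1 was at background in DMSO at 24 h, and its change of 1.44 ± 0.61 did not pass (adjusted p = 0.0608). Without DMSO replicate 2 at 6 h it was 1.98 (adjusted p = 0.00259), and without replicate 3 it was 0.814 (adjusted p = 0.0456). A change that did not pass is not shown to be absent.

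ATF4 and amino acid response genes divided, 13 upward and 10 downward of 30, beside 38.9% and 22.3% of all genes. Their median of 0.292 turned to −0.172 under poly-A scaling. Slc7a5, a transporter of large amino acids, was 10.31, 10.28 and 10.36 and then 7.45, 7.67 and 7.48 in DMSO and 10.68, 10.82 and 10.50 and then 9.53, 9.25 and 9.53 with chlorothalonil. Asns, asparagine synthetase, fell by 1.68 in DMSO and 0.38 in treated cells. Ddit4, which restrains mTORC1, went the other way, from 2.14 at 6 h to 0.29 at 24 h, as DMSO rose by 2.61. Chac1, which cleaves glutathione, fell in treated cells by 0.53 and rose in DMSO by 0.77. Ddit3, the factor CHOP, and Trib3, its target, had changes of −0.0092 ± 0.13 and 0.42 ± 0.18 that did not pass (adjusted p = 0.956 and adjusted p = 0.0713), though without DMSO replicate 2 at 24 h that of Trib3 was 0.555 (adjusted p = 0.0116). Slc7a5 and Asns were not called under poly-A scaling.

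DNA replication genes gained effect in 31 of 44 and lost it in 2, with a median of 0.629 (0.166 poly-A scaled). In each arm 40 of the 44 fell, with medians of −1.52 in DMSO and −0.835 with chlorothalonil. Pole2, a polymerase epsilon subunit, was 9.54, 9.84 and 9.40 and then 7.21, 7.36 and 6.94 in DMSO and 9.29, 9.32 and 9.54 and then 8.54, 8.35 and 8.52 in treated cells. The groups overlapped at 6 h and were apart at 24 h. Gmnn, geminin, changed in DMSO alone, with 1.36 ± 0.16, and Orc6 and the helicase subunit Mcm6 fell in both arms, with 1.14 ± 0.14 and 1.0 ± 0.12. Poly-A scaling kept none of these 4 calls.

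Mitosis genes had 15 of 47 upward and 6 downward, both smaller shares than those of all genes (38.9% and 22.3%). Their median of 0.0833 was −0.0861 with centred arrays and −0.38 under poly-A scaling. The arms fell to a like degree, with medians of −0.792 in DMSO and −0.688 with chlorothalonil. Mki67, the Ki-67 protein, had an effect of −0.84 at 6 h and −0.23 at 24 h, and DMSO fell the more. For Top2a, topoisomerase II alpha, the change of −0.32 ± 0.14 did not pass (adjusted p = 0.0614), but did with arrays centred, at −0.494 (adjusted p = 0.00639), and when single arrays were left out, CHL replicate 3 at 24 h (adjusted p = 0.022), DMSO replicate 3 at 24 h (adjusted p = 0.027) or DMSO replicate 2 at 6 h (adjusted p = 0.0459). Cdkn3, a phosphatase of cyclin-dependent kinases, stood apart in the list. It was 9.83, 9.89 and 9.81 and then 11.69, 11.72 and 11.69 in DMSO and 10.04, 10.01 and 10.04 and then 9.59, 9.27 and 9.55 with chlorothalonil. In the G1 list 10 of 22 genes went up and 4 down, beside 38.9% and 22.3% of all genes, and the median of 0.322 was −0.141 under poly-A scaling. Ccnd1, cyclin D1, crossed over from 0.27 to −0.93, and Rbl2, a pocket protein, rose more in treated cells, by 1.99, than in DMSO, by 0.78.

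Among p53 targets 12 of 22 genes gained effect and 3 lost it, with a median of 0.483 and 0.0193 under poly-A scaling. Triap1, an apoptosis inhibitor, turned from −0.86 to 0.54, chiefly as treated cells rose by 1.15. Mdm2, the p53 ligase, held 12.97, 13.19 and 13.16 and then 13.18, 13.25 and 13.05 in treated cells while DMSO fell from 12.26, 12.09 and 12.25 to 11.61, 11.60 and 11.43. Its other probe sets gave changes of 0.051 and 0.624 that did not pass (adjusted p = 0.654 and adjusted p = 0.068). Cdkn1a, the inhibitor p21, had a change of 0.43 ± 0.11 (adjusted p = 0.00738), which turned to −0.038 under poly-A scaling, and another probe set gave −0.238 (adjusted p = 0.666). Sesn2, a stress-induced regulator of mTORC1, lost effect in treated cells alone, from 12.23, 12.47 and 12.46 to 11.29, 11.22 and 11.16. Another probe set of Sesn2 gave −0.592, which did not pass (adjusted p = 0.0639). Apoptosis regulators had 13 of 27 upward and 6 downward, beside 38.9% and 22.3% of all genes. Bcl2l11, the BIM protein, crossed over from 0.59 to −1.37, though another probe set of low signal gave a change of −0.313 (adjusted p = 0.551). Tnfrsf12a, the TWEAK receptor, gained 1.27 ± 0.10 with a rise in treated cells and a fall in DMSO.

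Of 26 interferon-stimulated genes 19 rose in treated cells and 16 in DMSO (33.7% and 32.2% of all genes). Their effect moved upward in 10 and downward in 6, near the shares of all genes (38.9% and 22.3%). The median of −0.00977 was −0.473 under poly-A scaling. Mx2, an antiviral GTPase, was at background in both groups at 6 h and reached 7.33, 8.18 and 8.13 with chlorothalonil and 4.56, 4.84 and 4.68 with DMSO at 24 h. Irf7 rose by 2.68 in treated cells and 1.22 in DMSO. Irf1 was lower in treated cells at 6 h, 6.49, 6.60 and 6.86 against 8.56, 8.82 and 8.35, and recovered in that arm alone to 7.84, 7.97 and 8.11. Ifitm2, a membrane restriction factor, crossed over from 0.36 to −0.72. Inflammatory and NF-kB targets had 8 of 19 upward and 5 downward, near the shares of all genes (38.9% and 22.3%), and the median of 0.242 was −0.222 under poly-A scaling. Nfkbib, an inhibitor of NF-kB, gained 1.72 ± 0.23 with both arms moving, and Il1rl1, the receptor of interleukin-33, fell in both arms, to background in DMSO.

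Hypoxia and glycolysis genes lost effect in 16 of 35 and gained it in 5, with a median of −0.257 and −0.721 under poly-A scaling. Vegfa, the endothelial growth factor, moved in treated cells alone. It was 10.57, 10.62 and 10.60 and then 9.16, 8.95 and 9.06 with chlorothalonil and 9.38, 9.47 and 9.70 and then 9.77, 9.79 and 9.51 with DMSO, above DMSO at 6 h and below it at 24 h. Car9, a carbonic anhydrase, and the lysyl hydroxylase Plod2 rose in DMSO by 0.93 and 0.68 and fell in treated cells by 0.51 and 0.46. Plod1 moved in DMSO alone.

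Tubulins and stathmins had 8 of 17 genes upward, near the 38.9% of all genes, and 0 downward, with a median of 0.398 that was −0.0655 under poly-A scaling. Tubb4b, a beta-tubulin, rose by 0.35 in treated cells and fell by 0.87 in DMSO. Oxidative phosphorylation genes went up in 17 of 54 and down in 3, both smaller shares than those of all genes (38.9% and 22.3%), and the small median of 0.122 was −0.0469 with centred arrays and −0.341 under poly-A scaling. Ndufb10 and Ndufa5 of complex I gained 0.81 ± 0.10 and 0.62 ± 0.09 chiefly through the treated arm, and Ndufb9 and Ndufab1 0.75 ± 0.09 and 0.76 ± 0.10 through DMSO alone. Of 26 cytosolic ribosomal protein genes 1 went up and 0 down, with a median of 0.0637, −0.106 centred and −0.4 under poly-A scaling.

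Few kidney function genes could be measured, 7 of 37 listed, of which 2 went up and 4 down. Slc4a4, the basolateral sodium bicarbonate cotransporter, was 8.52, 8.71 and 8.53 and then 10.22, 10.34 and 10.26 in DMSO and 8.55, 8.55 and 8.62 and then 7.94, 7.67 and 8.07 with chlorothalonil. Mme, the brush border protease neprilysin, fell in treated cells by 1.53 and rose in DMSO by 0.63. Ggt1 went the other way, with 1.46 ± 0.17, as DMSO fell from 8.64, 8.63 and 8.67 to 6.83, 6.74 and 6.54. Of 15 kidney injury genes 4 went up and 4 down, and Spp1, osteopontin, and Lgals3, galectin-3, moved oppositely, with −0.96 ± 0.11 and 0.72 ± 0.08. Gja1, the gap junction protein connexin 43, crossed over from 0.95 to −0.34. Another probe set of Gja1 gave a change of −0.921, which did not pass (adjusted p = 0.0757). F11r, a tight junction protein, rose in both arms, more in DMSO.

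Of all genes 38.9% moved upward and 22.3% downward, the shares beside which the counts of the further lists stand. AhR targets and xenobiotic metabolism had 4 of 16 genes upward and 5 downward, with Ephx2, a soluble epoxide hydrolase, at −2.58 ± 0.26 as DMSO rose by 3.09. Actin, YAP and SRF targets had 12 of 32 upward and 6 downward, Nppb among them. Lats2, a kinase that restrains YAP, gained 0.68 ± 0.09, and Tead1, the DNA-binding partner of YAP, had a change of −0.66 ± 0.11. Autophagy and lysosome genes had 11 of 37 upward and 9 downward. The lysosomal enzymes Glb1 and Hexa and the protease Lgmn lost effect by −1.13 ± 0.11, −0.77 ± 0.08 and −0.74 ± 0.09 as DMSO rose, and the proton pump subunit Atp6v1b2 gained 1.13 ± 0.10 as DMSO fell. Metallothioneins and metal transport had 4 of 20 upward and 4 downward, with the zinc transporter Slc30a4 at 1.31 ± 0.15 in the treated arm alone and Mtf1, the metal-sensing factor, at 1.04 ± 0.09, for which another probe set gave −1.236 (adjusted p = 0.00313).

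**Figure D5:**
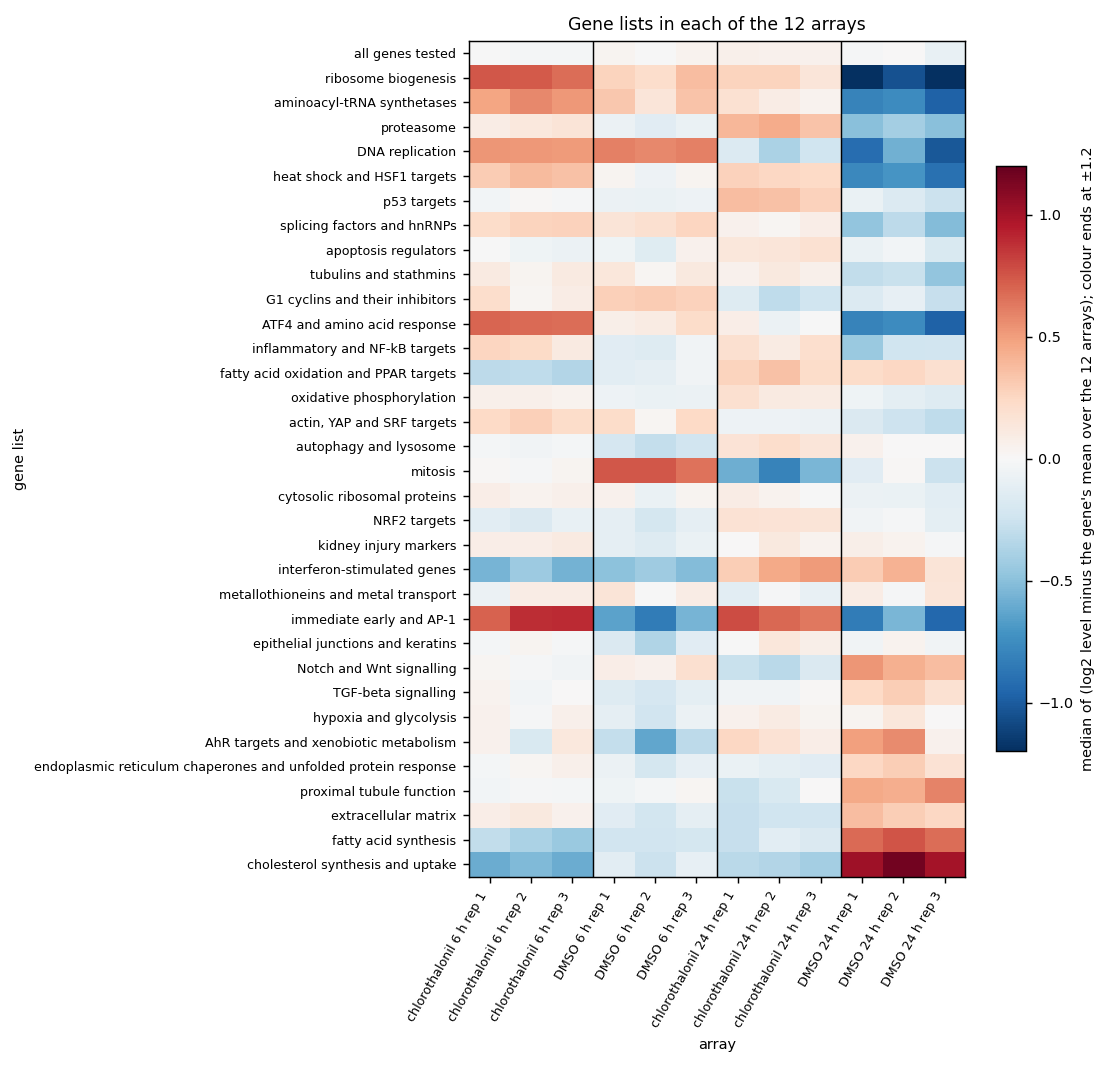
Each cell is the median, over the tested genes of a list, of the log2 level minus the gene's own mean over the 12 arrays; the colour scale ends at ±1.2. Replicates of a group look alike, and the DMSO arrays of 24 h stand apart in the top rows (ribosome biogenesis, synthetases, proteasome) and the bottom rows (matrix, fatty acid and cholesterol synthesis).

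Of the 165 genes picked by rule, 158 passed in the change of effect on the deposited scale and 7 did not: Atf3, Fosl1, Jun, Ddit3, Trib3, Ccl2 and Top2a. Under poly-A scaling 79 of the 158 no longer passed, Cdkn1a among them with its sign changed.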

How the data were processed

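Total RNA of each culture was labelled with biotin and hybridised to an Affymetrix rat array. The authors deposited log2 expression values for 31099 probe sets, normalised with GCRMA, per the submitters' processing notes (version not given in the sources used here). These values were used as deposited, from 0.915 to 16.1. Probe sets were named through the platform annotation and current Entrez symbols: 20832 had 1 gene, 436 several and 9831 none, and those with several or none were left out.

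Probe sets above log2 4 in at least 3 of the 12 arrays were kept (16328), and the probe set with the highest mean stood for each gene (9041 genes; 2568 had more than 1). Limma 3.58.1 in R 4.3.3 was fitted to the means of 4 groups, with 8 residual degrees of freedom, and p-values were adjusted by Benjamini-Hochberg over all 9041 genes with a threshold of 0.05. Both arms, both effects and their change are contrasts of this fit and share arrays. A fold against a group at background was computed with values raised to log2 4 and is given as "at least". The number of arrays, 3 a group, limits the precision. The labels call the replicates biological and give 3 studies at each time, but tie no replicate number to a study, so p-values measure the spread between these arrays, which may be partly technical. On simulated data the fit recovered 84 of 100 changes planted at 1 log2 unit and 98 of 100 at 2, with 12 false calls among the 9041 genes. The simulated noise was independent between genes and arrays, no shift was shared across an array, and most genes had no change. So the simulation checks the fit and says nothing of scaling or of the number of false calls in the data.

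Genes were named by rule: the 12 highest and 12 lowest changes whose arms did not overlap, the 4 highest and 4 lowest in each of 3 arm classes, the 4 members with the smallest p in each list with at least 3 called, and a set of well-known genes. The members, lists and rule were chosen with earlier results of these data known. Promoters, from 250 bases before to 50 after the start, come from RefSeq (GRCr8) and were matched by symbol, for 7661 of the genes tested. Alternatives were other filters, scalings, probe set rules, fits with all 18 arrays, a replicate block, and leaving out each array.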

Additional observations from a re-analysis of the deposited data

Results flagged for a closer look

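All 5530 genes with a changed effect meet a direct test of the difference between 6 and 24 h, and in 1113 of them the effect was called at both times in opposite directions. Among the named genes, 10 had such opposite effects of 2-fold or more at both times. Treated cells were higher at 6 h and lower at 24 h for Bambi (change of effect −3.69), Eci1 (−2.36), Kitlg (−4.12), Mgp (−5.48), Notch1 (−3.41), Pgm3 (−2.82), Timp3 (−4.27) and Tmem176b (−5.52). They were lower at 6 h and higher at 24 h for Actr5 (2.80) and Ighmbp2 (2.72). The treated arm alone moved in Pgm3, the DMSO arm alone in Tmem176b, Actr5 and Ighmbp2, and both arms in the other 6, the same way for Eci1. Another probe set of Notch1, of low signal, gave a change of −1.099 (adjusted p = 0.00116). There the treated arm had 0.024 and the DMSO arm 1.123. Kitlg and Tmem176b were at or below background in 2 arrays each and Mgp and Notch1 in 5. With values raised to background the effect at 6 h was below 2-fold for Tmem176b (0.764 in log2) and Notch1 (0.67), and both effects of the other 8 genes remained at 2-fold or more.

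Poly-A control probe sets, which play no part in the comparisons, were higher in treated than in DMSO arrays by 0.60 at 6 h and by 1.06 at 24 h. DMSO replicate 1 at 24 h was low, at 9.165 beside 10.31 and 10.51 in its group. So 1 array weighs heavily in the value of 24 h. The part of these controls in the results was not tested beyond the scaling to them.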

How the results depend on the processing

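The total of 5530 changed genes was 5333 to 5922 with all 18 arrays, another filter, quantile normalization, centred arrays, array weights, an intensity trend or the mean over probe sets, and 5221 to 5543 when each array was left out in turn. Scaling to the poly-A controls, added to these as another reference, gave 919 (137 upward, 782 downward), of which 904 were among the 5530 with the same sign, and turned the sign of 658 of the 5530. On that scale the class of treated arm alone held 164, DMSO arm alone 581, both arms opposite 48 and both the same way 58 genes, and 972 genes passed in the treated arm, 2324 in the DMSO arm and 2712 in the effect at 6 h. Leaving out single arrays on that scale, chosen after seeing the data, gave 517 to 2262 genes, 79 to 1236 upward and 404 to 1695 downward, and on the deposited scale 3289 to 3527 upward and 1851 to 2053 downward. DMSO replicate 1 at 24 h gave the 2262, and without DMSO replicate 3 at 24 h 1803 genes passed, 108 upward and 1695 downward. The causes were not tested.

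Of the 158 named calls, poly-A scaling ended 79, among them Cdkn1a, which turned to −0.038 (adjusted p = 0.983). The mean over probe sets turned Mtf1 to −0.0994 (adjusted p = 0.587) and ended the calls of Cdkn1a and Tpm1, centring ended that of Cdkn1a (0.256), and raising values to background that of Il1rl1 (0.652). The other settings ended no named call. Of 57 other probe sets, which belong to 39 named genes, 51 gave a change of the same sign. Of the 7 named genes not called, Atf3 passed in 5 settings (all 18 arrays, centring, array weights, the intensity trend and 1 array left out), Top2a in these 4 and with 3 single arrays left out, Fosl1 with array weights, the intensity trend and 2 single arrays left out, and Trib3 with the intensity trend and 1 array left out. A fit with the replicate number as a block gave 5454 calls, 5359 of them shared, and changed no named call. Deviations of the 18 same-number pairs of arrays correlated at −0.277 to 0.247, 4 of them above 0.1, so the numbers were not taken as pairing the samples.

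Genes near background have only bounds, the cultures of 6 h are the earliest analysed here, and the labels give no RNA amount per well. With 3 arrays a group, effects that did not pass are not shown to be equal.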
